A study of Mus musculus with 9 samples.

Results

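Ppy, Pyy and Npy encode the pancreatic polypeptide family of peptide hormones. They were taken from the count table by gene symbol, and each symbol had 1 row, giving 3 genes of 25611. RNA was sequenced from hand-picked pancreatic islets of mice aged 4 weeks. The mice labelled knockout carried Pdx1-Cre;Glis3fl/fl, which is a conditional allele of the transcription factor gene Glis3 together with a Cre recombinase driven by the Pdx1 promoter (3 libraries). The controls carried Glis3fl/fl without the driver (4 libraries). Glis3 binding was mapped by chromatin immunoprecipitation with a GFP antibody in islets of Glis3-eGFP mice aged 8 weeks, as 1 list of 21254 peaks with no replicate. Pdx1 is active in the progenitors of all pancreatic epithelial cells, so the driver is not specific to any hormone cell, and no group carried Cre alone, so effects of Cre and of the Glis3 deletion cannot be told apart.

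The family shares a hairpin-like peptide fold and an amidated C-terminus. Pancreatic polypeptide is the hormone of the gamma (PP) cells of the islet. Peptide YY is best known from gut L cells and is also made in several islet cell types of the mouse. Neuropeptide Y is a transmitter of sympathetic nerves and brain neurons and has been described in immature beta cells. The peptides act on a common set of inhibitory G protein-coupled receptors, and the dipeptidyl peptidase Dpp4 trims peptide YY and neuropeptide Y after release. In mouse Ppy and Pyy are neighbours on chromosome 11, and Npy lies alone on chromosome 6.

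The promoter sequences are shown because Ppy and Pyy fell together while Npy rose. They are also shown because they lie at or near the gene starts from which peak distances were measured. Each is 250 bases before to 50 bases after the RefSeq transcription start (build GRCm38.p6, whose primary coordinates are those of mm10), written 5′ to 3′ on the strand of the gene. The windows are chr11:102101270-102101569 on the minus strand for Ppy, chr11:102107783-102108082 on the minus strand for Pyy and chr6:49822460-49822759 on the plus strand for Npy. Capitals mark runs of GGGGGG on either strand, the centre of the described Glis binding consensus, and TATAA on either strand. Both motifs were chosen after the sequences were seen.
Ppy: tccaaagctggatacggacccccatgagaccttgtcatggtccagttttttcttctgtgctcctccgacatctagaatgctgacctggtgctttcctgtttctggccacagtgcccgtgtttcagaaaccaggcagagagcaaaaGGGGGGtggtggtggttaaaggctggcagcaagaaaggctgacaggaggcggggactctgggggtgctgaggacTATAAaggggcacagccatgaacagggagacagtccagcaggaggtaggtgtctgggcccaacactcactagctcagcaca
Pyy: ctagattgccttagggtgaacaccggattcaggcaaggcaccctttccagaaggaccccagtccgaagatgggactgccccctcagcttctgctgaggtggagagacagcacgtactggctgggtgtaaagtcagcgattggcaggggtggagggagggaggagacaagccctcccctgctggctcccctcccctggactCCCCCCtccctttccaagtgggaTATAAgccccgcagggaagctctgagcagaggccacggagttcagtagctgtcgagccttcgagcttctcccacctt
Npy: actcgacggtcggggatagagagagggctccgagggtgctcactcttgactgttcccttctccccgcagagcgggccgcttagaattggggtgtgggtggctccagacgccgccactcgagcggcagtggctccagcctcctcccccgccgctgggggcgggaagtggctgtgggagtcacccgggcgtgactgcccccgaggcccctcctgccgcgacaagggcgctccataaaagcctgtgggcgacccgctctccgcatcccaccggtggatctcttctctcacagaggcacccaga

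The Ppy window held GGGGGG 105 bases before the start, followed directly by T, and TATAA 31 bases before it. The Pyy window held GGGGGG on the opposite strand 50 bases before the start and TATAA 27 bases before it. The Npy window held neither motif. Of 32851 promoters of the same length, 17.9% held GGGGGG, 5.17% held GGGGGGT and 24.9% held TATAA. The RefSeq start of Ppy lay 19 bases upstream of the gene end used in the count table.

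Total counts ran from 12099365 to 22578480 per labelled knockout library and from 18297697 to 48054551 per control library. The targeted gene was not lower by its whole-gene count, which does not separate the deleted exons: Glis3 stood at 54.2 ± 3.11 CPM (SD, n = 3) in labelled knockouts and 37.8 ± 6.95 CPM (SD, n = 4) in controls. Its edgeR adjusted p was 0.0257, and 0.0505 with the replicate block. In 6 of 16 alternatives, the replicate block included, Glis3 did not pass, with edgeR adjusted p from 0.0501 to 0.117 there. The group is therefore called labelled knockout. Of the other islet hormone genes, Ins2 and Ins1 fell (log2 −1.59 and −1.30), whereas Gcg (glucagon), Sst (somatostatin) and Ghrl (ghrelin) did not pass the test (log2 −0.32, 0.12 and 0.15), and in every library Ins2 had at least 64374 CPM, Gcg at least 35660 CPM and Sst at least 5768 CPM, so the defining hormones of islets were abundant. Sst passed under library size scaling alone (log2 0.32, edgeR adjusted p = 0.0416). In this bulk tissue, fewer cells of a type and less RNA per cell cannot be told apart.

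Ppy and Pyy fell and Npy rose in the labelled knockout islets. The fall covered 2 of the 3 members, where 5.25% of the 14529 tested genes were lower at an edgeR adjusted p under 0.05. The rise covered 1 of the 3, where 8.73% of tested genes were higher. For none of the 3 did the groups overlap, whereas 12.6% of tested genes had every labelled knockout below every control and 14.0% had every labelled knockout above. Levels are TMM-normalised counts (CPM), taken per 1000000 of the library size times its TMM factor. That factor ran from 0.812 (control 4) to 1.114 (labelled knockout 1). Each log2 fold change sets labelled knockout over control.

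Ppy (chromosome 11, 102099931 to 102101300, minus strand, mm10) had 575, 581 and 279 CPM in labelled knockouts 1 to 3, and 7933, 6536, 7689 and 3164 CPM in controls 1 to 4. Labelled knockout 3 was the lowest library, control 4 was the lowest control, and a wide gap separated the groups. The means were 478 ± 172 CPM (SD, n = 3) in labelled knockouts and 6330 ± 2197 CPM (SD, n = 4) in controls. The fall of Ppy was 13.2-fold, a log2 fold change of −3.73 with an SE of 0.42 (edgeR adjusted p = 0.000844). Its counts made up 0.0521 ± 0.0209% of a labelled knockout library and 0.617 ± 0.247% of a control library. Among 14529 tested genes, 24, Ppy included, had a log2 fold change this low or lower.

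Pyy (chromosome 11, 102106676 to 102107832, minus strand, mm10) had 1842, 1980 and 1638 CPM in labelled knockouts 1 to 3, and 3984, 4251, 6644 and 4679 CPM in controls 1 to 4. Control 3 was the highest, the other controls lay close together, and the labelled knockouts varied little among themselves. The means were 1820 ± 172 CPM (SD, n = 3) in labelled knockouts and 4889 ± 1205 CPM (SD, n = 4) in controls. The fall of Pyy was 2.69-fold, a log2 fold change of −1.43 with an SE of 0.18 (edgeR adjusted p = 9.95e-05). A fall at least this large was seen in 199 tested genes, Pyy included.

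Npy (chromosome 6, 49822710 to 49829505, plus strand, mm10) had 109, 88.8 and 96.9 CPM in labelled knockouts 1 to 3, and 23.4, 20.6, 30.1 and 22.5 CPM in controls 1 to 4. Every labelled knockout stood well above the highest control, which was control 3. The means were 98.2 ± 10.1 CPM (SD, n = 3) in labelled knockouts and 24.1 ± 4.17 CPM (SD, n = 4) in controls. The rise of Npy was 4.08-fold, a log2 fold change of 2.03 with an SE of 0.14 (edgeR adjusted p = 9.08e-07). Of the tested genes, 23 had a smaller adjusted p than Npy, and 295, Npy included, had a log2 fold change this high or higher.

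**Figure D1:**
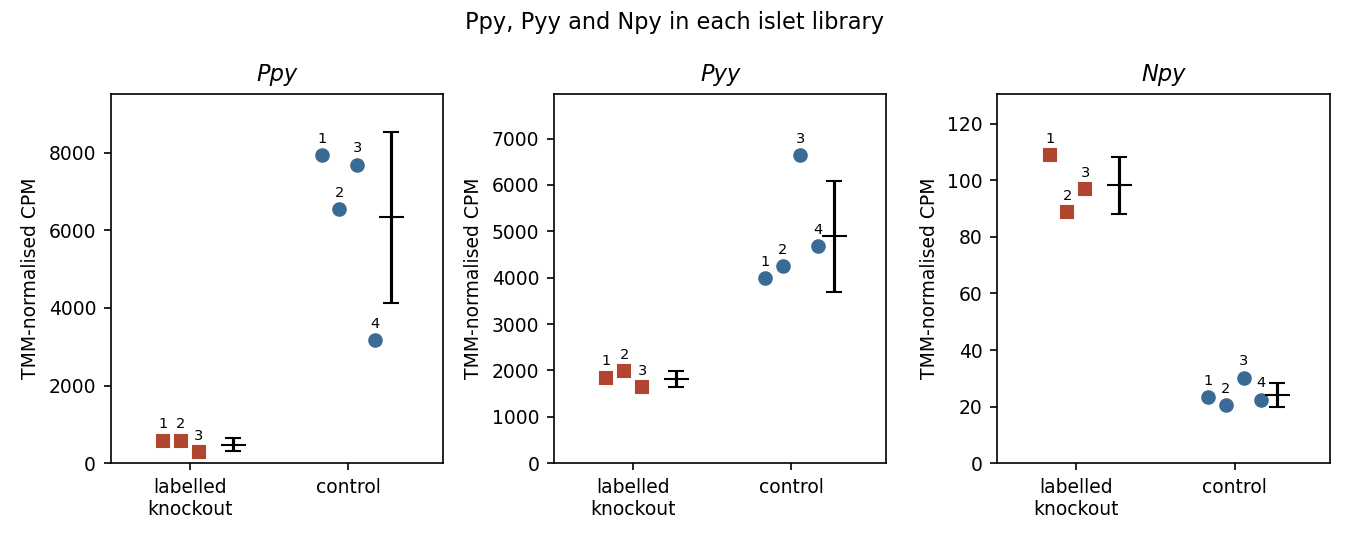
TMM-normalised CPM (vertical axes, linear, from 0) of Ppy, Pyy and Npy in 3 labelled knockout libraries (red squares) and 4 control libraries (blue circles). Numbers beside points are replicate numbers, and the bars at the right of each group are mean ± SD. The groups do not overlap in any panel, and control 4 (3164 CPM) is the lowest control for Ppy but not for Pyy or Npy.

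The coefficient of variation of Ppy was 36.0% in labelled knockouts and 34.7% in controls, so its library-to-library spread was wide in both groups. For Pyy it was 9.45% in labelled knockouts and 24.6% in controls, and for Npy 10.3% in labelled knockouts and 17.3% in controls. The highest control had 2.51 times the Ppy level of the lowest control, against 1.67 times for Pyy and 1.47 times for Npy. Control 4, the library with the least Ppy of the controls, did not set the result: without it the log2 fold change of Ppy was −3.97 (edgeR adjusted p = 3.92e-06). Over 16 alternatives the log2 fold change ran from −4.02 to −3.48 for Ppy, from −1.51 to −1.23 for Pyy and from 1.95 to 2.21 for Npy, and each stayed past the threshold. The highest adjusted p were 0.0154 for Ppy, 0.00167 for Pyy and 1.9e-05 for Npy.

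**Figure D2:**
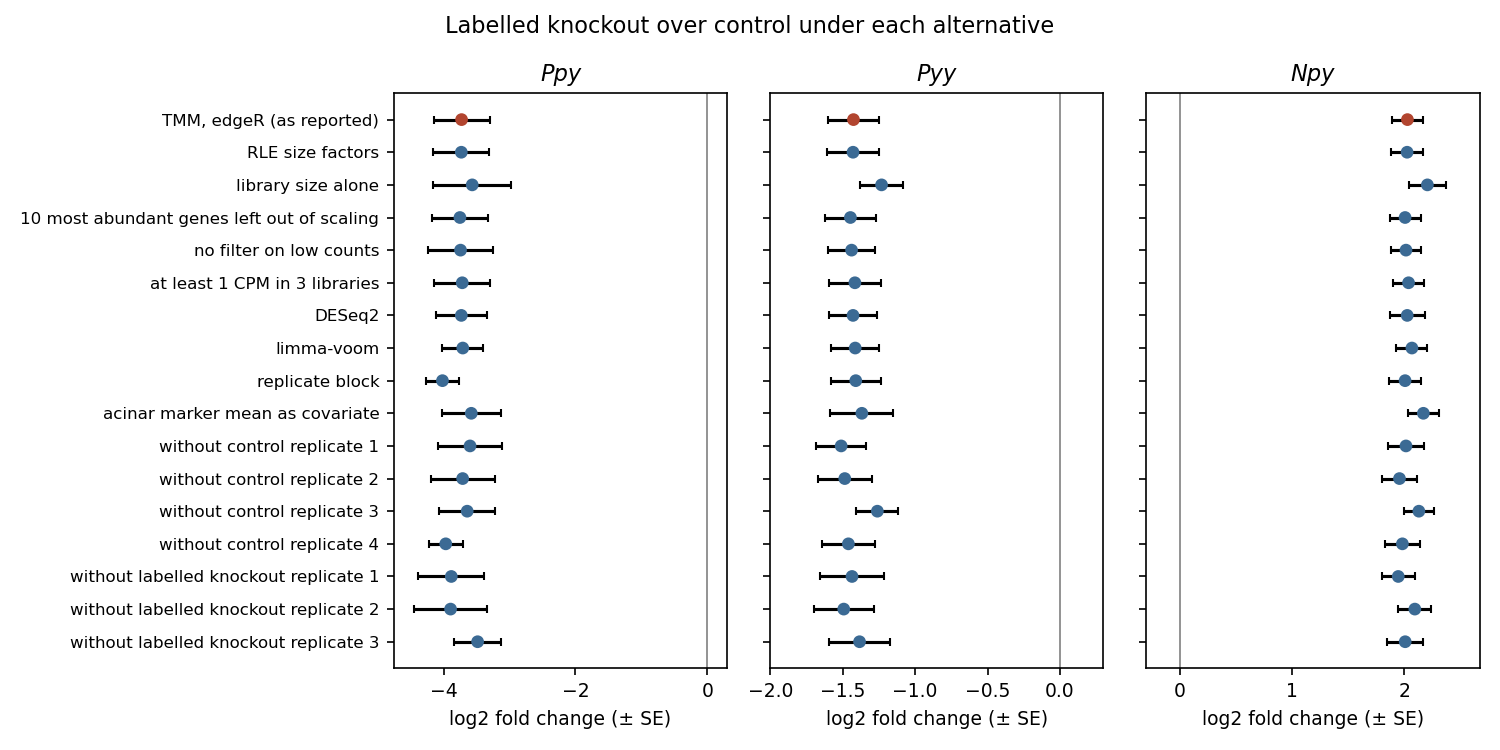
Log2 fold change of labelled knockout over control (horizontal axes, linear, each with its own scale; bars are ± SE) for Ppy, Pyy and Npy, as reported (red) and under 16 alternatives (blue). No interval of ± SE reaches 0, and the values stay between −4.02 and −3.48 for Ppy, −1.51 and −1.23 for Pyy, and 1.95 and 2.21 for Npy.

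Whether the members moved by unequal amounts was read from the ratio of their counts inside each library, which no library scaling affects. The ratios are not corrected for transcript length, so only their difference between groups is compared. There were 0.312, 0.293 and 0.171 Ppy counts per Pyy count in labelled knockouts 1 to 3, and 1.99, 1.54, 1.16 and 0.676 in controls 1 to 4. The ratio was thus above 1 in 3 of the 4 controls and in none of the labelled knockouts. Without length correction this does not rank the transcripts of Ppy and Pyy. The log2 ratio of Ppy to Pyy averaged −2.0 ± 0.48 (SD, n = 3) in labelled knockouts and 0.32 ± 0.67 (SD, n = 4) in controls, a difference of −2.31, or 4.98-fold.

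There were 0.0592, 0.0448 and 0.0591 Npy counts per Pyy count in labelled knockouts 1 to 3, and 0.00587, 0.00484, 0.00454 and 0.00481 in controls 1 to 4. The log2 ratio of Npy to Pyy was higher by 3.43 in labelled knockouts (−4.21 ± 0.23, SD, n = 3) than in controls (−7.65 ± 0.16, SD, n = 4). The log2 ratio of Npy to Ppy was higher by 5.75, at −2.21 ± 0.61 (SD, n = 3) in labelled knockouts and −7.96 ± 0.58 (SD, n = 4) in controls. For each of the 3 ratios the groups did not overlap, and the exact two-sided permutation test gave p = 0.0571, unchanged by Benjamini-Hochberg adjustment over the 3. That is the smallest p that 3 against 4 libraries allow, so the test could not pass 0.05.

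**Figure D3:**
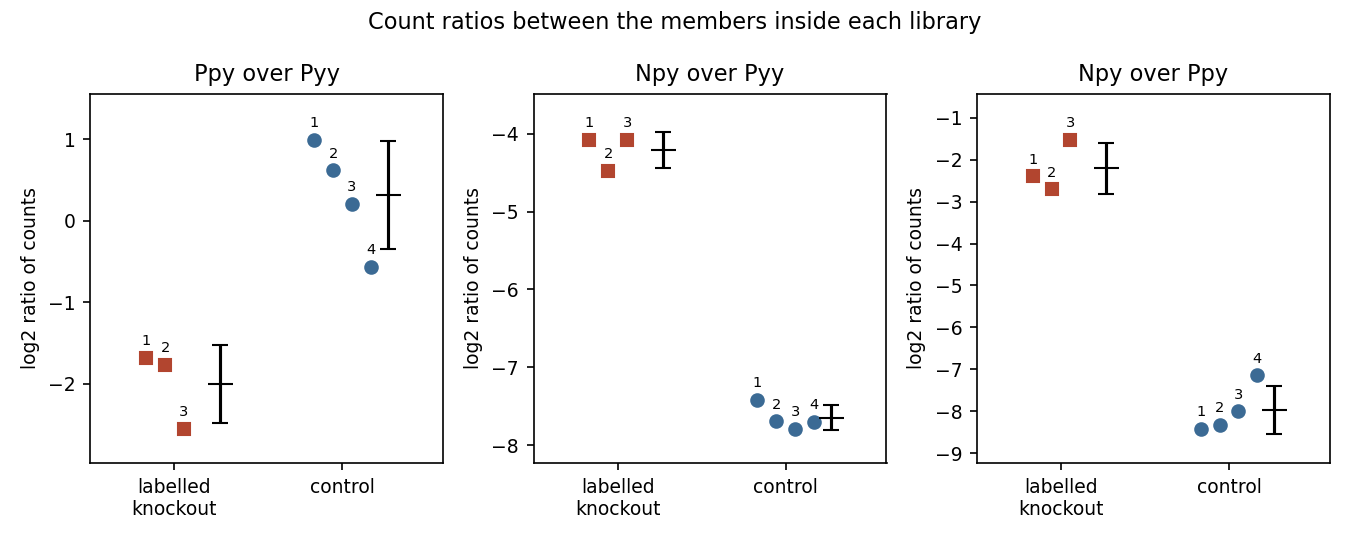
Log2 ratio of counts (vertical axes, linear) of Ppy over Pyy, Npy over Pyy and Npy over Ppy inside each library, with labelled knockouts as red squares, controls as blue circles, replicate numbers beside points and mean ± SD at the right of each group. The groups are apart in all 3 panels, and among the controls the Ppy over Pyy ratio spreads from −0.56 to 0.99.

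No other tested gene of the Ppy-Pyy locus passed as lower by edgeR, although Hdac5 had every labelled knockout below every control. Within 100 kb of Ppy or Pyy the count table held 8 further genes, of which 7 were tested, 0 were lower, 1 was higher and 6 did not pass by edgeR. With 5.25% of all tested genes lower and 8.73% higher, counts this small in 7 genes say nothing particular to the locus. At an unadjusted p under 0.05 edgeR had 1 of them lower (Hdac5), as had DESeq2 at its adjusted threshold, and limma-voom had 0. The gene that rose was G6pc3, which encodes a widely expressed glucose-6-phosphatase (76.9 ± 3.8 CPM in labelled knockouts, SD, n = 3, and 47.5 ± 8.09 CPM in controls, SD, n = 4; log2 0.70, SE 0.14, edgeR adjusted p = 0.0034). Hdac5, a class IIa histone deacetylase gene, had 79.1, 82.7 and 80.2 CPM in labelled knockouts 1 to 3, and 136, 115, 89.4 and 90.0 CPM in controls 1 to 4. Every labelled knockout was thus below every control, but Hdac5 missed the threshold (log2 −0.42, SE 0.15, edgeR adjusted p = 0.0812). It passed with the replicate block (log2 −0.47, edgeR adjusted p = 0.0309), by DESeq2 (0.0474) and without control 4 (edgeR adjusted p = 0.0461).

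The scaffold genes Mpp2 and Mpp3, which flank Ppy on its downstream side, had log2 values of 0.37 (SE 0.15) and 0.33 (SE 0.20), and Cd300lg, an endothelial receptor gene, had 0.14 (SE 0.15). Lsm12 (log2 0.29, SE 0.21) and Tmem101 (0.09, SE 0.18), on the far side of Pyy, also did not pass. Nags, the N-acetylglutamate synthase gene next to Pyy, was too low to test. Npy had no other gene of the count table within 100 kb, and no span of another gene overlapped any of the 3 members.

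**Figure D4:**
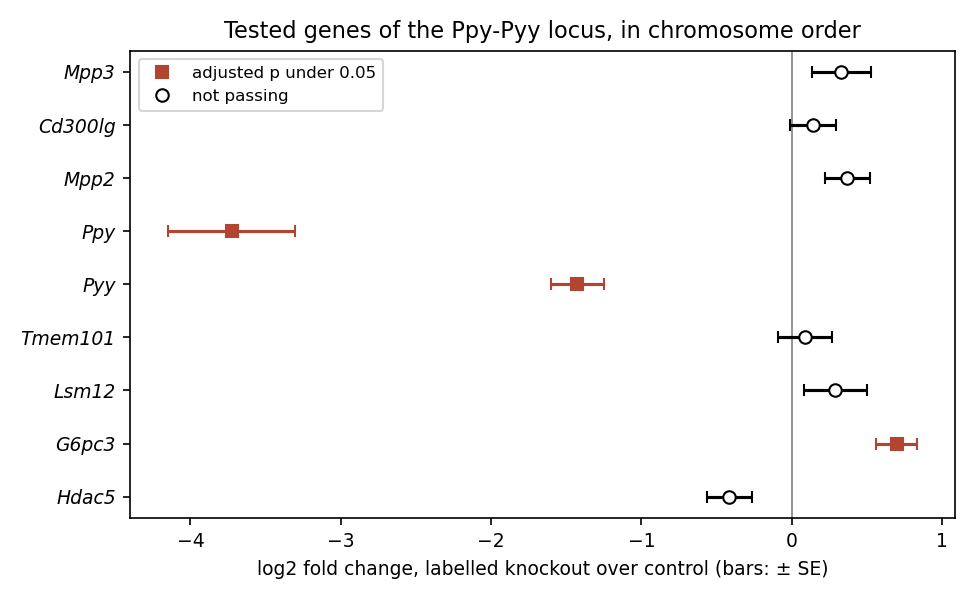
Log2 fold change of labelled knockout over control (horizontal axis, linear; bars are ± SE) for Ppy, Pyy and the 7 tested genes within 100 kb, listed in chromosome order (not to scale). Filled red squares have an adjusted p under 0.05 and open circles do not. Ppy (−3.73) and Pyy (−1.43) lie far left of 0, G6pc3 (0.70) is right of 0, and the other 6 lie between −0.42 and 0.37.

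Glis3-eGFP peaks lay around, not at, the starts of Ppy and Pyy, and 1 peak lay just upstream of Npy. Of the members, 1 of 3 had a peak midpoint within 1 kb of the gene start, a share that was 71.2% over all tested genes, and 3 of 3 had a peak within 100 kb, as did 95.0% of tested genes. The same 12 peaks fell within 100 kb of Ppy and of Pyy, against a median of 4 over tested genes. As many or more were found for 3.75% of tested genes. Within 100 kb of Ppy, and likewise of Pyy, lay 8 other gene starts, of which 1 was that of the other member (the start of Hdac5 is farther away), against a median of 4 over tested genes, and 6 of the 12 peaks lay within 1 kb of the start of a neighbour. These were Mpp2 (2 peaks), Mpp3, Tmem101, Lsm12 and G6pc3.

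The peak nearest to Ppy (chr11:102097231-102097430) lay 3970 bases downstream of its start, beyond its 3′ end and in no gene span. It was 10502 bases downstream of the start of Pyy. The nearest peak upstream of Pyy (chr11:102123198-102123397) was 15465 bases from its start, also between genes, and a further intergenic peak (chr11:102129960-102130159) lay 22227 bases upstream. No peak midpoint lay in the 6532 bases between the starts of Ppy and Pyy. Of tested genes, 76.0% had a nearest peak as near as that of Ppy or nearer, and 80.8% one as near as that of Pyy or nearer, where the median distance over tested genes was 262 bases.

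The Npy peak (chr6:49822111-49822310) had its midpoint 500 bases upstream of the start and ended 149 bases before the promoter window printed for Npy. The only other peak within 100 kb of Npy (chr6:49904087-49904286) lay 81476 bases downstream of the start. With 2 peaks in that window, Npy was among the sparser genes, since 84.3% of tested genes had as many or more. None of the printed promoter windows held a peak. The peaks came from older mice than the RNA and carried no height, so they could not be ranked.

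**Figure D5:**
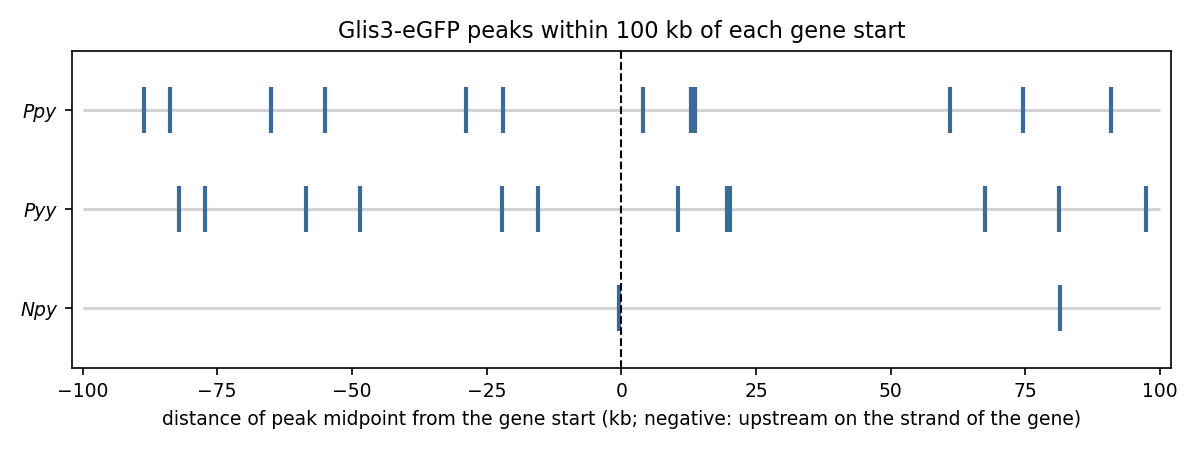
Distance in kb (horizontal axis, linear; negative is upstream on the strand of the gene) of each Glis3-eGFP peak midpoint from the starts of Ppy, Pyy and Npy, within 100 kb. Vertical ticks are peaks and the dashed line is the gene start. Ppy and Pyy show the same 12 peaks shifted by 6.53 kb, with none nearer than 3.97 kb to Ppy, and Npy shows 2, of which 1 is 0.5 kb upstream.

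Transcripts of the receptors for these peptides were scarce. Npy1r, the Y1 receptor gene, had 0.52, 0.475 and 1.24 CPM in labelled knockouts 1 to 3, and 1.18, 1.4, 1.95 and 1.2 CPM in controls 1 to 4. The groups overlapped and the gene did not pass (log2 −0.92, SE 0.60, edgeR adjusted p = 0.348). Npy2r and Npy5r, which encode the Y2 and Y5 receptors, and Npy6r had 0 counts in all 7 libraries, which allows up to 0.054 CPM over the labelled knockouts and 0.025 CPM over the controls (3 counts per group, counting error only). Npy4r, the receptor gene for pancreatic polypeptide, had 25 counts in labelled knockout 1 (95% Poisson interval 16.2 to 36.9) and 0 in the other 6 libraries, so it was not tested.

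Genes that make and trim the peptides rose more often than they fell. Of 11 processing and cleavage genes, all tested, 7 rose, 0 fell and 4 did not pass by edgeR, where 8.73% of all tested genes rose and 5.25% fell. At an unadjusted p under 0.05 the counts were also 7 and 0, DESeq2 had 7 and 0, and limma-voom 6 and 0. The list had a median log2 fold change of 0.79 where that of all tested genes was 0.0065. Pcsk1, a prohormone convertase gene, had 601 ± 44.5 CPM in labelled knockouts (SD, n = 3) and 217 ± 5.75 CPM in controls (SD, n = 4), a log2 fold change of 1.47 (SE 0.11, edgeR adjusted p = 1.85e-06). Pam, whose enzyme amidates the C-terminus on which these peptides depend, rose by a log2 value of 1.27 (SE 0.12). Ctsl, a cathepsin gene, rose by 1.19 (SE 0.13), the carboxypeptidase gene Cpe by 0.86 (SE 0.14), the Pcsk2 chaperone gene Scg5 by 0.79 (SE 0.14) and Pcsk2 by 0.75 (SE 0.12), all on the log2 scale.

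Dpp4 had 121, 74.6 and 88.9 CPM in labelled knockouts 1 to 3, and 74.9, 66.0, 68.6 and 62.3 CPM in controls 1 to 4. Labelled knockout 2 lay inside the control range. Dpp4 passed narrowly (log2 0.48, SE 0.15, edgeR adjusted p = 0.0485), and in 8 of 16 alternatives it did not, with adjusted p from 0.0503 to 0.231 there. Without labelled knockout 1 its log2 value was 0.26. Pcsk1n, which encodes a convertase inhibitor, had log2 0.24 (SE 0.21, edgeR adjusted p = 0.504) and passed with the replicate block (log2 0.47, edgeR adjusted p = 0.0283) and under library size alone (0.031). The peptidase gene Fap had log2 1.09 (SE 0.93), and Lnpep (0.01, SE 0.43) and Qpct (−0.13, SE 0.34) changed sign between alternatives, as Fap did.

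Of the other genes used as gamma cell markers none passed as lower by edgeR, a count that 8 genes would also give at the 5.25% of all tested genes that fell. Of the 9 others on the list, 8 were tested by edgeR, 0 were lower, 1 was higher and 7 did not pass. Of all tested genes 8.73% were higher. At an unadjusted p under 0.05 edgeR had 1 lower (Sertm1), and DESeq2 and limma-voom had 0 lower at their adjusted threshold. Their summed level was 168 to 198 CPM in labelled knockouts and 140 to 204 CPM in controls, so the groups overlapped. Most of that sum was Meis2 (mean 117 CPM in labelled knockouts and 119 CPM in controls) and Etv1 (39.9 and 32.5 CPM). The sum therefore says little about scarcer genes such as Sertm1 (2.01 and 3.71 CPM). Cmtm8 rose, with 16.4, 20.4 and 28.2 CPM in labelled knockouts 1 to 3, and 7.0, 8.91, 10.8 and 10.5 CPM in controls 1 to 4 (log2 1.23, SE 0.21, edgeR adjusted p = 0.00159). Sertm1 had every labelled knockout below every control but missed the threshold (log2 −0.89, SE 0.35, edgeR adjusted p = 0.117). Meis2 (log2 −0.03, SE 0.16) and Etv1 (0.30, SE 0.14), transcription factor genes that other islet cells also express, did not pass, and Slc6a4 was near 0 and not tested. The 3 epsilon cell markers summed to 51.2 to 62.6 CPM in labelled knockouts and 25.9 to 43.4 CPM in controls. Of them 0 were called by edgeR or DESeq2, and 1 was higher with the replicate block. At an unadjusted edgeR p under 0.05 and by limma-voom 1 was higher, which by edgeR was Spink1. Spink1 had a mean of 21.2 CPM in labelled knockouts and 3.39 CPM in controls. Ghrl (log2 0.15, SE 0.26) and Acsl1 (log2 0.025, SE 0.19) did not pass, so the sums were apart mostly through Spink1. Spink1 was highest in labelled knockout 2 (35.6 CPM), where the acinar markers described below also had their highest sum.

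Th and Uchl1, which neurons share with islet cells, rose, while the markers most specific to sympathetic neurons stayed at very low levels. Sympathetic neurons contain neuropeptide Y. Over all tested genes 8.73% rose and 5.25% fell by edgeR. Of 8 sympathetic neuron markers 2 rose, 4 did not pass and 2 were not tested. The 2 that rose were Th, the tyrosine hydroxylase gene (log2 1.93, SE 0.14), and Uchl1 (0.97, SE 0.12). The other 6 summed to 10.9 to 22.2 CPM in labelled knockouts and 9.76 to 18.0 CPM in controls. Dbh, the noradrenaline-making enzyme, was at most 1.04 CPM in labelled knockouts and 0.365 CPM in controls, and Slc6a2, the noradrenaline transporter gene, was at most 0.0886 CPM in labelled knockouts and 0 in controls. Of 7 Schwann and glial markers 0 were called by edgeR and 1 was higher by DESeq2, by limma-voom and at an unadjusted edgeR p under 0.05. Their sum was 33.6 to 55.3 CPM in labelled knockouts and 33.3 to 49.5 CPM in controls.

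For gut endocrine cells, which make peptide YY, the hormone genes Cck, Gast, Gip and Sct rose while Pyy fell, so 4 of 12 listed genes were higher and 1 lower. Only 11 of the 12 were in the count table and 6 were tested, of which 1 did not pass. The gene that did not pass was Vil1, with a mean of 95.8 CPM in labelled knockouts and 83.7 CPM in controls. Gip and Sct were low, at 0.907 to 3.12 CPM and 4.92 to 7.39 CPM in labelled knockouts. In controls Gip had 0 to 0.139 CPM and Sct 0.383 to 0.852 CPM. Cck had 88.9 to 164 CPM in labelled knockouts and 0 to 0.383 CPM in controls, and Gast, the gastrin gene, had 22.1 to 29.2 CPM in labelled knockouts and 0.37 to 1.4 CPM in controls. The intestinal factor genes Cdx1 and Cdx2 had 0 counts in every library, whereas Cdh17, an intestinal cadherin gene, had 1.71, 0 and 0.31 CPM in labelled knockouts 1 to 3 (30 counts) and 0 in all controls and was not tested. Of 16 acinar markers 0 were called by edgeR, DESeq2 or limma-voom and 0 had an unadjusted edgeR p under 0.05, with a sum of 2378 to 13432 CPM in labelled knockouts and 771 to 4809 CPM in controls. With the replicate block 12 of them were higher. With the acinar marker mean as a covariate the log2 fold changes were −3.58 for Ppy, −1.37 for Pyy and 2.17 for Npy (edgeR adjusted p = 0.00111, 0.00121 and 1.08e-06), close to the values without it. Of 8 duct markers Spp1 rose by edgeR, 5 did not pass and 2 were not tested, and the count of higher ones was 2 by DESeq2 and 2 without labelled knockout 3. The summed level without Spp1 was 263 to 326 CPM in labelled knockouts and 238 to 275 CPM in controls. Endothelial, macrophage and mesenchymal markers (6 each) had 0 called by edgeR; at an unadjusted p under 0.05 the counts were 0, 1 and 3 higher, and DESeq2 called 2 of the mesenchymal ones, as did the replicate block. Among markers of the main islet cells, 6 of 10 beta genes fell and 1 rose, 3 of 11 alpha genes fell and 4 rose, and 2 of 6 delta genes rose by edgeR, where 5.25% of all tested genes fell and 8.73% rose. The alpha count of 3 was not stable: it was 0 without labelled knockout 1 and under library size alone, and 1 without control 3, without control 4, without labelled knockout 3, by limma-voom and with the acinar covariate. The part of these cell types, other than by the acinar covariate, in the changes of the members was not tested.

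By a fixed likeness measure, Pearson's r of log2(CPM + 0.5) over the 7 libraries against 12769 other tested genes with a mean of at least 1 CPM, the genes most like Ppy were Map4k3 (r = 0.997), Mslnl (0.995), Clstn1 (0.993), Ier5 (0.991) and Kif1c (0.988). Their r of deviations from the group means was 0.889 to 0.979, values from the same 7 libraries that chose them. The genes most like Pyy were Mafk (r = 0.988), Glce (0.987), Kcnh2 (0.984), Chga, which encodes the granule protein chromogranin A (0.982), and Jak1 (0.978), with within-group r of 0.824 to 0.892. Those most like Npy were Arxes2, Gast, Tmbim4, Cpn1 and Lsr (r = 0.994 to 0.995), with within-group r of 0.756 to 0.904. Many genes came close, with r over 0.95 for 95 genes with Ppy, 71 with Pyy and 311 with Npy, and the libraries share the group difference, so these values describe 7 libraries and carry no test. The genes most like Ppy and those most like Pyy were different sets of 5. Map4k3, the gene most like Ppy, changed far less than Ppy (log2 −0.48, SE 0.13) and lost its call in 7 of 16 alternatives.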

How the data were processed

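RNA libraries came from islets of 3 labelled knockout and 4 control mice, and per the labels' design text from separate mice. The deposited values were raw counts per gene, with mm10 coordinates per the file headers. The submitters' processing notes list STAR 2.5, featureCounts 1.5.0-p1 and DESeq2, with annotation and strand option not given in the sources used here. Per the labels the peak list came from 1 library, and its 200 base intervals were deposited with no score. The same notes list, without roles, HOMER 4.9.1, Bowtie 1.2, bedtools 2.24.0, cutadapt 1.2.1 and Picard 1.110. The input library was not analysed here.

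Genes were kept by filterByExpr, scaled by TMM and tested across all genes with the edgeR 4.0.16 quasi-likelihood test (robust, R 4.3.3), with Benjamini-Hochberg adjustment over 14529 genes and a threshold of 0.05. The SE was taken as the size of the log2 fold change over the root of F. The fit was tested on simulated data. No pair of libraries in a group were copies (chi-square per degree of freedom 23.4 or more). Libraries with the same replicate number had only weakly correlated deviations from group means (r = 0.173, 0.117 and 0.117 for numbers 1 to 3). Labelled knockout 3 was closer to control 4 (r = 0.157). These values do not establish a pairing, and a replicate block was fitted only as an alternative. The others were RLE factors, library size alone, scaling without the 10 most abundant genes, other filters, DESeq2 1.42.0, limma-voom 3.58.1, an acinar covariate and leaving out each library. Peak distances ran from the peak midpoint to the 5′ limit of the gene span. The members and gene lists were chosen with earlier results of these data known. Named genes followed a rule of members, neighbours within 100 kb, receptor and processing genes, called gamma, epsilon and sympathetic markers, other islet hormones, Glis3 and the 5 most alike genes per member. Further marker genes named as examples were chosen after their values were seen. Counting intervals cover counting error only, since reads carry no molecular identifiers.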

Additional observations from a re-analysis of the deposited data

Results flagged for a closer look

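Among 54 values checked over the 4 controls, 3 had 1 library far from the other 3, and chance alone gives about 1 in 20. For Lsm12, a gene of the Ppy-Pyy locus, control 2 was high at 12.4 CPM where the other controls had 9.81 to 10.2 CPM, a gap of 0.841 of the range. For Clstn1, among the genes most like Ppy, control 4 was low at 163 CPM where the others had 182 to 185 CPM, a gap of 0.86 of the range. For Glce, among the genes most like Pyy, control 3 was high at 22.1 CPM where the others had 16.6 to 17.4 CPM, a gap of 0.853 of the range. The members themselves stayed under the limit, at 0.707 for Ppy (control 4 low) and 0.739 for Pyy (control 3 high).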

How the results depend on the processing

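The log2 fold changes of Ppy, Pyy and Npy kept their sign and stayed past the threshold in all 16 alternatives, and the 3 ratios between members kept their sign in all 8 alternatives run for each. Library size alone moved the median of all tested genes by 0.169 (log2) and gave 324 lower genes against 763, and the acinar covariate gave 485. At an adjusted p under 0.01 there were 336 lower and 731 higher genes, against 763 and 1268. With the replicate block 50 listed genes were called against 33, 803 genes were lower and 1385 higher, and among named genes Glis3, Hdac5 and Pcsk1n changed their call. Without 1 library at a time the counts were 541 to 825 lower, 934 to 1142 higher and 29 to 35 listed genes. The cause of these shifts was not tested, except that a stricter threshold calls fewer genes. By construction the window set the peak counts: Ppy had 1, 5 and 20 peaks within 10, 50 and 200 kb, Pyy had 0, 6 and 20, and Npy had 1, 1 and 4.

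Sign changes were confined to genes that did not pass. Lnpep had log2 −0.013 without the 10 most abundant genes in the scaling, −0.0059 with no filter, −0.40 by limma-voom, −0.041 with the replicate block, and −0.50 to 0.40 without 1 library. Qpct had 0.054 under library size alone, and Fap had −0.25 with the acinar covariate. Without 1 library at a time Qpct ran from −0.48 to 0.17, Fap from −0.45 to 1.64, Ghrl from −0.019 to 0.35 and Tmem101 from −0.034 to 0.17.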

Other observations

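Set against other islet hormones inside each library, in a comparison chosen after the values were seen and not tested, Ppy had 6.35 to 14.4 counts per 1000 Gcg counts in labelled knockouts and 43.2 to 183 in controls. Control 4 was the control at 43.2, and the other 3 controls had 146 to 183. Per 1000 Sst counts Ppy had 32.7 to 72.1 in labelled knockouts and 339 to 1224 in controls. Per 1000 Ins2 counts Ppy had 2.3 to 8.93 in labelled knockouts and 9.05 to 33.0 in controls, which nearly touched through control 4. That library stood at 9.05, and the other 3 controls had 26.35 to 33.0.

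Pyy had 37.2 to 48.6 counts per 1000 Gcg counts in labelled knockouts and 63.8 to 126 in controls. Per 1000 Sst counts Pyy had 191.5 to 245.7 in labelled knockouts and 501.9 to 780.2 in controls. Per 1000 Ins2 counts it had 13.5 to 28.6 in labelled knockouts and 13.4 to 22.8 in controls, so relative to Ins2 the Pyy groups overlapped. Npy had 0.796 to 1.69 counts per 1000 Ins2 counts in labelled knockouts and 0.0644 to 0.103 in controls, and 2.18 to 2.73 per 1000 Gcg counts in labelled knockouts and 0.307 to 0.577 in controls.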
